A study of Mus musculus with 6 samples.

Results

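Transcripts of *Cd38* and of 9 further genes that spend or make nicotinamide adenine dinucleotide (NAD) were followed in the mouse cerebral cortex at 6 and 16 months of age. The 10 genes were *Cd38*, *Bst1*, *Sarm1*, *Parp1*, *Sirt1* and *Sirt3*, whose products consume NAD, and *Nampt*, *Nmnat2*, *Nmnat3* and *Nadk*, whose products make NAD or NADP. They were picked by name from the 38355 genes listed in the deposited count files, with the difference between the 2 ages already known, so that their differences are given as a description, without a test. Of the 10 genes, 9 passed the filter on low counts, and *Bst1* did not.

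The samples were whole cortical hemispheres of C57BL/6 mice, 3 mice of 6 months and 3 mice of 16 months, with no transgene, deletion or treatment named in either group. All mice were anesthetized with chloral hydrate before dissection, the labels gave no sex (a passage of the methods on cell sorting states that mice for RNA sequencing were male, without saying whether this covers the whole-cortex samples), and one protocol text gave the younger age as 3 months where the titles and the age field gave 6 months. Polyadenylated RNA was sequenced in pairs of 100-base reads on a HiSeq2000, and each sample gave between 29797253 and 46519280 reads assigned to genes. The comparison asks which transcripts differ between the adult and the older cortex.

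NAD carries electrons in metabolism and is also broken down as a substrate. Its ring nicotinamide is released by CD38, by the related enzyme BST1, by SARM1, by poly(ADP-ribose) polymerases (PARPs) and by the sirtuin deacylases, and is returned to NAD through nicotinamide mononucleotide by NAMPT and the NMNAT enzymes. In the brain, CD38 is found in astrocytes and other cells, and the balance of NMNAT2 and SARM1 governs the survival of axons.

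*Cd38* (ENSMUSG00000029084; chr5:43868553-43912375, plus strand, GRCm38) and *Bst1* (ENSMUSG00000029082; chr5:43818885-43843986, plus strand) stand side by side, with 24566 bases and no other annotated gene between them. The most alike ungapped stretches of 1 read length in the longest coding sequences of this pair, and of the pair *Nmnat2* and *Nmnat3*, are shown because they bear on whether reads of one gene could be counted for the other. Capitals mark the bases that differ within the pair.
Cd38: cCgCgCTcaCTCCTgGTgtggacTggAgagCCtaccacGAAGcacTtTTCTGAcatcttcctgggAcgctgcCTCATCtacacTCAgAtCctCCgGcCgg
Bst1: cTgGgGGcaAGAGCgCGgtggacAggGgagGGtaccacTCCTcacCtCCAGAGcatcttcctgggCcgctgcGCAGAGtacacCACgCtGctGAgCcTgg
Nmnat2: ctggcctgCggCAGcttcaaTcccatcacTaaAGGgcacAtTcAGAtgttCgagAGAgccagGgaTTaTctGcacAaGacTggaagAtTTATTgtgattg
Nmnat3: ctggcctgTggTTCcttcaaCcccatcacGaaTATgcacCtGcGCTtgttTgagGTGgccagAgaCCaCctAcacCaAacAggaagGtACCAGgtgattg
The *Cd38* stretch (chr5:43869014-43869113) and the *Bst1* stretch (chr5:43818993-43819092) each lie in 1 exon and differ at 42 of 100 bases. The *Nmnat2* stretch runs from chr1:152955142 to chr1:153073844 and the *Nmnat3* stretch from chr9:98354083 to chr9:98399473, both on the plus strand and both across exon boundaries, and they differ at 32 of 100 bases. Taking the longest transcript of each gene, none of another gene matched that of any of the 10 genes at 97% identity over 100 bases. Shorter transcripts were not searched. Exons of other genes covered 12.7% of the exon length of *Sirt3* (*Ric8a* and *Psmd13*, on the other strand), 2.95% of *Bst1* (*Fbxl5*, on the other strand), 1.22% of *Sirt1* (*Gm16145*, on the other strand) and 0.132% of *Parp1* (*Mir6904*), and none of the other 6 genes.

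*Cd38*, which encodes the main NAD-cleaving ectoenzyme and makes the calcium messenger cyclic ADP-ribose, was higher in each of the 3 older samples. It had 201, 135 and 195 counts at 6 months and 257, 296 and 283 counts at 16 months. Scaled to the library as counts per 1000000 with TMM normalization (CPM), these were 4.29, 4.50 and 4.65 CPM against 7.75, 9.44 and 8.28 CPM. The groups did not overlap, and the lowest older sample lay above the highest younger one by more than the range within either age. The means were 4.48 ± 0.181 CPM at 6 months and 8.49 ± 0.863 CPM at 16 months (SD, n = 3 each), which gave a fitted log2 fold change of 0.92 (standard error 0.096, 95% interval 0.71 to 1.14). This corresponds to 1.90-fold, and placed *Cd38* 144th by size of the difference among 17120 tested genes. In bulk tissue, more cells of a type that holds *Cd38* and more *Cd38* RNA per cell cannot be told apart.

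**Figure D1:**
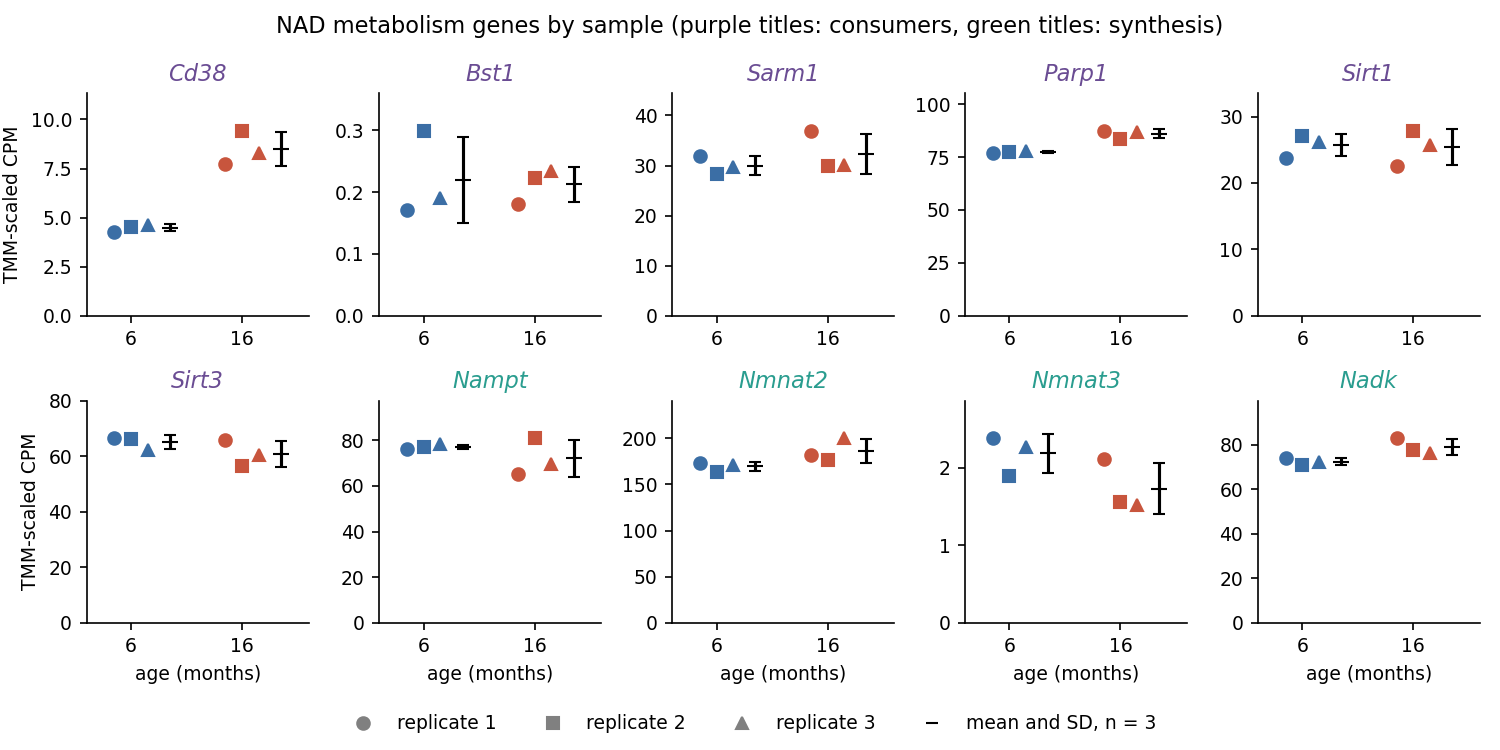
Levels of the 10 genes in every sample, as TMM-scaled counts per 1000000 (vertical axes, starting at 0) by age in months, with symbols for the 3 replicates and a bar for the mean and SD; purple titles are NAD consumers and green titles are synthesis genes. *Cd38* is the gene whose ages lie furthest apart for their spread, at 4.29 to 4.65 CPM against 7.75 to 9.44 CPM.

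*Bst1*, the neighbour and relative of *Cd38*, was near the limit of detection. It had 8, 9 and 8 counts at 6 months and 6, 7 and 8 counts at 16 months, or 0.220 ± 0.0696 and 0.213 ± 0.0281 CPM (SD, n = 3 each). The ages overlapped, and a difference was not detectable at this depth: fitted without the filter on low counts, its log2 fold change was 0.0019 (standard error 0.42).

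Among the other consumers, *Parp1* had the smallest spread between samples of one age. *Parp1* (chr1:180568924-180601254), whose product attaches ADP-ribose chains at DNA breaks, had 77.1, 77.3 and 77.9 CPM at 6 months and 87.5, 83.6 and 87.0 CPM at 16 months. The samples of the ages lay apart, by a log2 fold change of 0.15 (95% interval 0.043 to 0.26). *Sarm1* (chr11:78472330-78497754), which encodes an NADase that is switched on in injured axons, was at 28.2 to 32.0 CPM at 6 months and 29.9 to 37.0 CPM at 16 months, and the ages overlapped (log2 fold change 0.11, interval -0.091 to 0.30). Its highest value was that of replicate 1 at 16 months.

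The sirtuin genes differed by less than the spread between samples. *Sirt1* (chr10:63319005-63381704), a nuclear deacetylase, was at 23.8, 27.1 and 26.2 CPM at 6 months and 22.6, 27.9 and 25.7 CPM at 16 months (log2 fold change -0.014, interval -0.20 to 0.17). *Sirt3* (chr7:140863666-140882309), the main mitochondrial deacetylase, was at 66.7, 66.2 and 62.1 CPM and at 65.8, 56.4 and 60.4 CPM (log2 fold change -0.095, interval -0.24 to 0.052). For both genes the ages overlapped.

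On the side of synthesis, *Nampt* (chr12:32819545-32853349), which encodes the rate-limiting enzyme of the salvage route, was at 76.1, 77.0 and 78.2 CPM at 6 months. At 16 months it was at 65.4, 81.2 and 69.6 CPM, so that the 3 older samples lay on both sides of all younger ones. Its means were 77.1 ± 1.04 and 72.1 ± 8.15 CPM (SD, n = 3 each), and its log2 fold change was -0.097 (interval -0.27 to 0.072).

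The NMNAT enzymes join nicotinamide mononucleotide to AMP, NMNAT2 in the cytoplasm of neurons and their axons and NMNAT3 in mitochondria. *Nmnat2* (chr1:152954993-153119261) had 173.1, 163.8 and 171.6 CPM at 6 months and 181.5, 176.4 and 200.8 CPM at 16 months, without overlap (log2 fold change 0.14, interval -0.00029 to 0.27). *Nmnat3* (chr9:98287435-98420438) rested on 49 to 112 counts per sample, at 2.39, 1.90 and 2.26 CPM against 2.11, 1.56 and 1.52 CPM. The ages overlapped for *Nmnat3*, whose log2 fold change of -0.35 had the widest interval of the tested members, -0.71 to 0.012.

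*Nadk* (chr4:155562378-155591001), which encodes the cytosolic kinase that turns NAD into NADP, was at 74.1, 70.7 and 72.3 CPM at 6 months and 83.1, 77.8 and 76.1 CPM at 16 months. The ages did not overlap, and the log2 fold change was 0.13 (interval 0.0051 to 0.25).

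Taking consumers and synthesis genes apart, the samples of the 2 ages lay apart for *Cd38* and *Parp1* among 5 tested consumers and for *Nmnat2* and *Nadk* among 4 synthesis genes, all 4 higher at 16 months. Of all 17120 tested genes, 23.7% had ages that did not overlap, 12.2% with the older samples higher. The edgeR quasi-likelihood fit across all tested genes called 1.67% of them at an adjusted p of 0.05 (134 genes or 0.783% higher and 152 genes or 0.888% lower), and among the members it called *Cd38* (1 of 5 consumers) and none of 4 synthesis genes. Without adjustment, 2 consumers and 1 synthesis gene had p under 0.05, beside 17.4% of all tested genes, and DESeq2 called 1 consumer and 0 synthesis genes, beside 2.67% of the genes it tested. Since the members were picked from this contrast, nothing is read from these counts. The median log2 fold change was 0.11 over the tested consumers, 0.015 over the synthesis genes and 0.0014 over all tested genes.

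**Figure D2:**
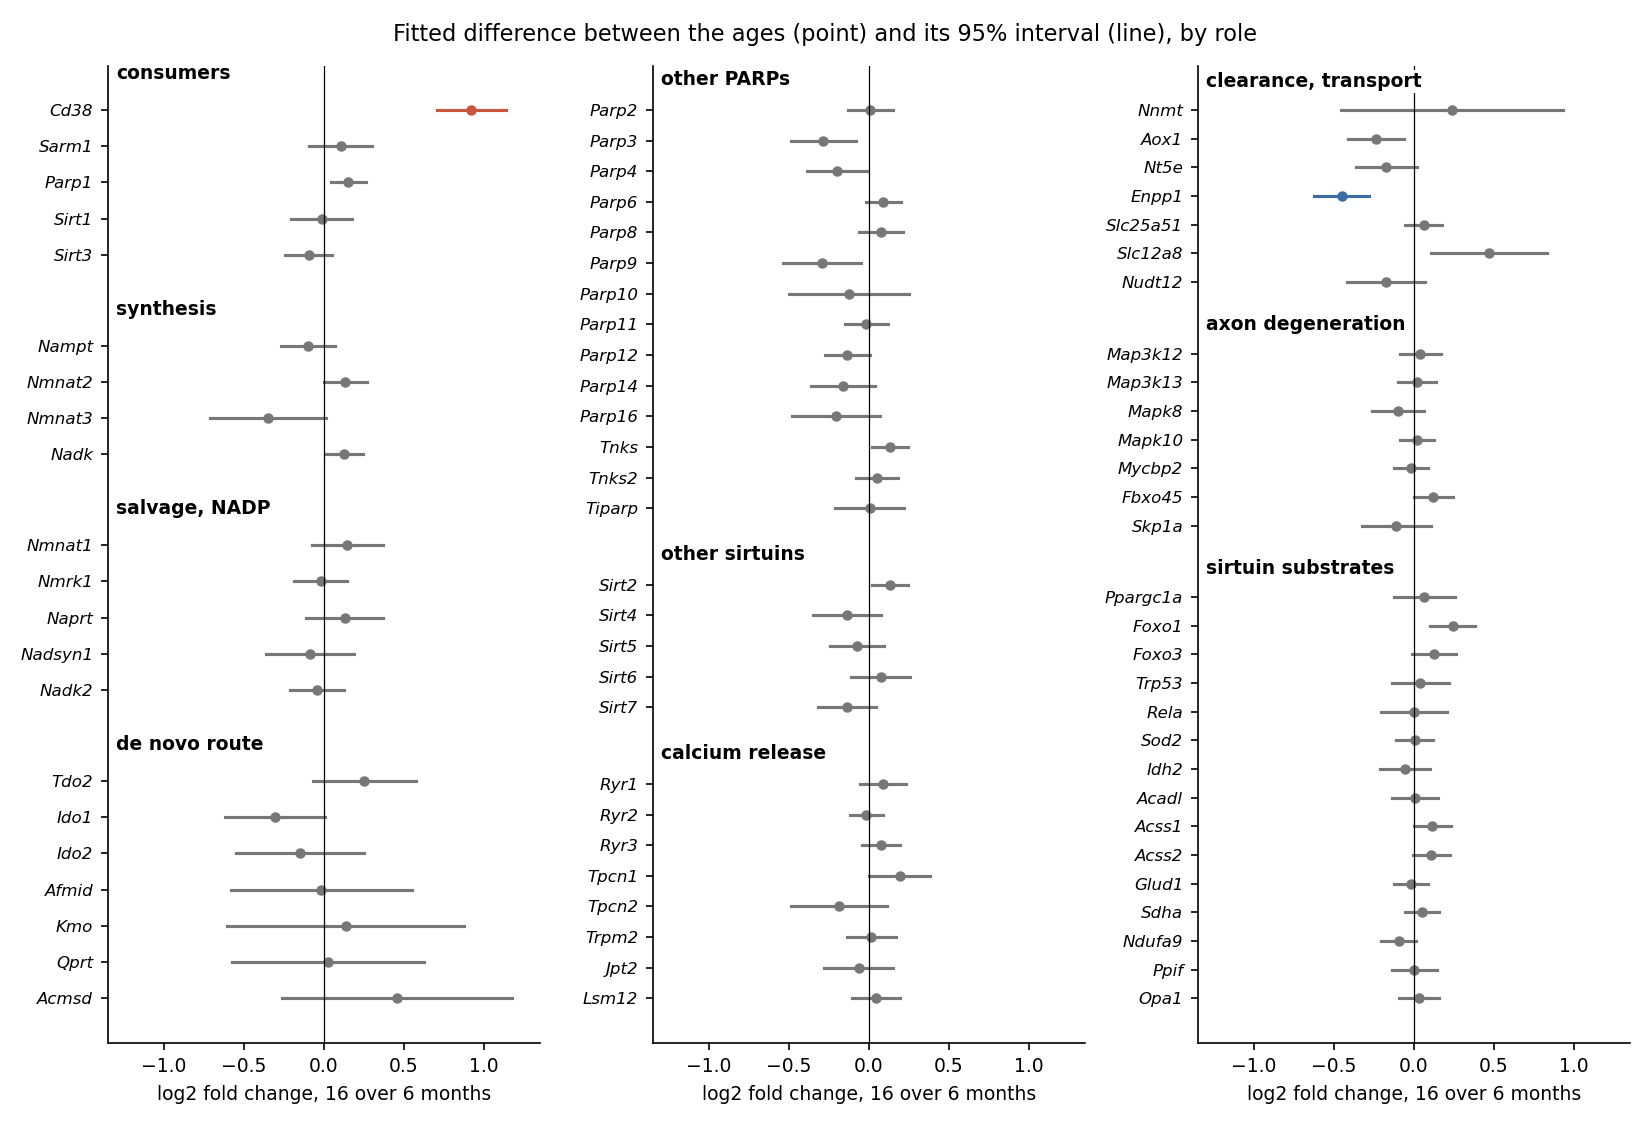
Log2 fold change of 16 over 6 months (point) with its 95% interval (line) for the 9 tested members (consumers, synthesis) and 68 other tested genes. The 68 are genes of NAD metabolism, calcium release, axon degeneration and sirtuin substrates, grouped by role. Red marks a gene called higher, blue one called lower and grey one not called by edgeR. *Cd38* at 0.92 and *Enpp1* at -0.45 are the 2 genes in color.

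Levels between genes were compared per length, as CPM per kilobase of joined exons averaged over the 6 samples. *Nmnat2* was the most abundant, at 30.8 CPM per kilobase, followed by *Nadk* at 20.2, *Parp1* at 15.4, *Nampt* at 14.8, *Sirt3* at 10.5, *Sarm1* at 5.54, *Sirt1* at 4.79, *Cd38* at 1.67, *Nmnat3* at 0.391 and *Bst1* at 0.0653 CPM per kilobase. The single samples of *Parp1* (14.6 to 16.5) and *Nampt* (12.9 to 16.1) overlapped, as did those of *Sarm1* (5.02 to 6.57) and *Sirt1* (4.24 to 5.23), so that the order within these pairs was not fixed. The other neighbors did not overlap in any sample. With the longest transcript as the length, *Sirt3* took place 4 and *Nampt* place 5. *Cd38* was in place 8 at either age, at 1.10 to 1.19 CPM per kilobase at 6 months and 1.99 to 2.43 CPM per kilobase at 16 months.

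**Figure D3:**
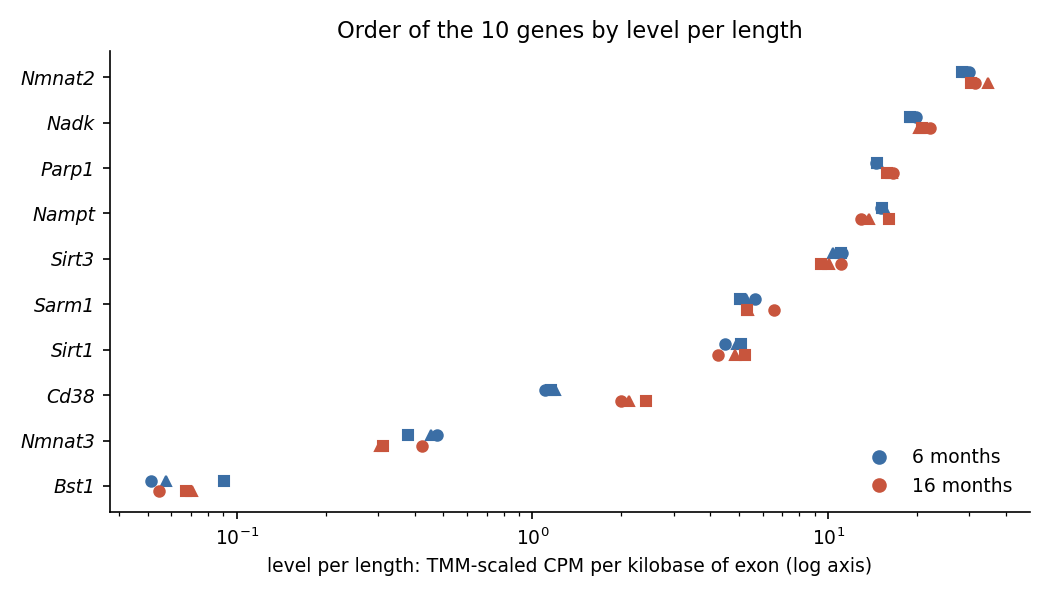
Level per length of the 10 genes in each of the 6 samples, as TMM-scaled CPM per kilobase of joined exons on a log axis, with genes in order of their mean; blue is 6 months and red is 16 months. Levels run from 0.0653 for *Bst1* to 30.8 for *Nmnat2*, and *Cd38* is the gene with the widest gap between the colors.

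The 3 older samples differed from each other more than the 3 younger ones. The standard deviation of log2 CPM was larger at 16 than at 6 months for 9 of the 9 tested members, for example 0.16 against 0.019 for *Nampt* and 0.14 against 0.058 for *Cd38*. Replicates 1 and 2 at 16 months deviated from the mean of their age along the GC content of the genes, with correlations across genes of 0.588 and -0.582, against -0.130 to 0.160 in the other 4 samples. *Nampt*, *Cd38* and *Sirt1*, the tested members of lowest GC content (40.3%, 40.9% and 44.0%), were all highest in replicate 2 and lowest in replicate 1 at 16 months. *Sarm1*, of the highest GC content (57.5%), was highest in replicate 1, as were *Parp1*, *Sirt3*, *Nmnat3* and *Nadk*. Over the 9 tested members, the log2 difference of replicate 1 and replicate 2 correlated with GC content with r = 0.836 (Spearman 0.85), and over 16904 tested genes with r = 0.636 (Spearman 0.713). These are correlations across genes measured in the same 2 libraries, and genes are not independent replicates.

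**Figure D4:**
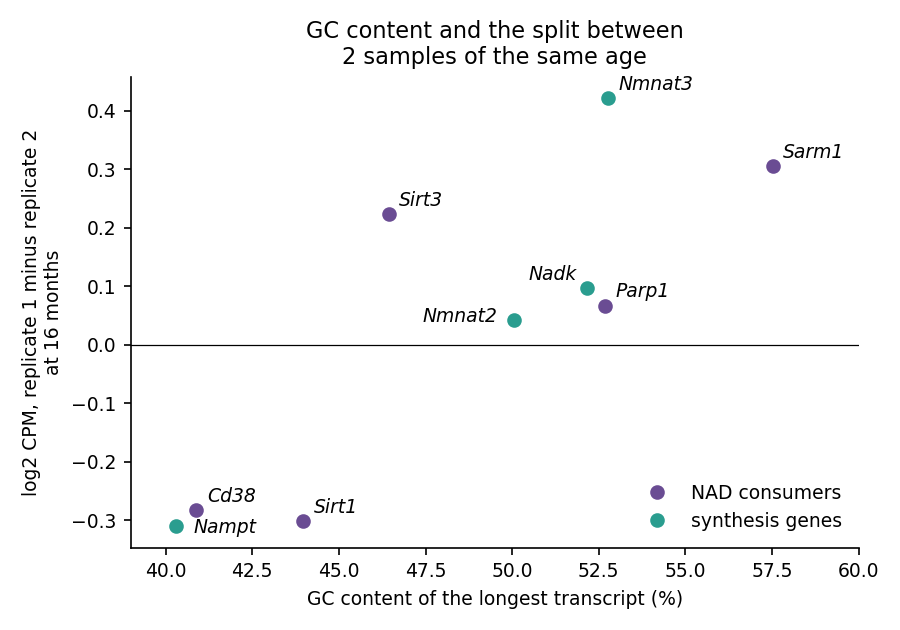
Log2 CPM of replicate 1 minus replicate 2 at 16 months (vertical axis) against the GC content of the longest transcript in percent (horizontal axis) for the 9 tested members; purple is consumers and green is synthesis genes. *Nampt*, *Cd38* and *Sirt1* lie at -0.31, -0.28 and -0.30, and the other 6 genes lie above 0.

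With offsets for GC content and transcript length in each sample, the standard deviation at 16 months was smaller than before for 7 of 9 tested members, such as *Cd38* at 0.028 and *Nampt* at 0.039. It was larger than before for *Sirt3* (0.16 against 0.11) and *Parp1* (0.049 against 0.036), and it was larger at 16 than at 6 months for 7 of 9 tested members. On that scale *Cd38* was at 2.11, 2.12 and 2.18 log2 CPM at 6 months and at 3.16, 3.13 and 3.10 log2 CPM at 16 months, a log2 fold change of 1.00. *Cd38*, *Parp1*, *Nmnat2* and *Nadk* again had ages that did not overlap, and *Nampt* at 6.15 to 6.22 log2 CPM at 16 months came close to its 6.22 to 6.24 log2 CPM at 6 months. The edgeR fit with these offsets called 13.7% of all tested genes, and among the members *Cd38* and *Parp1*, the latter at a log2 fold change of 0.12. Without offsets and with replicate 2 at 16 months left out, it called 12.7% of all tested genes, and among the members *Cd38* and *Parp1* as higher and *Nampt* as lower, the last at a log2 fold change of -0.19.

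**Figure D5:**
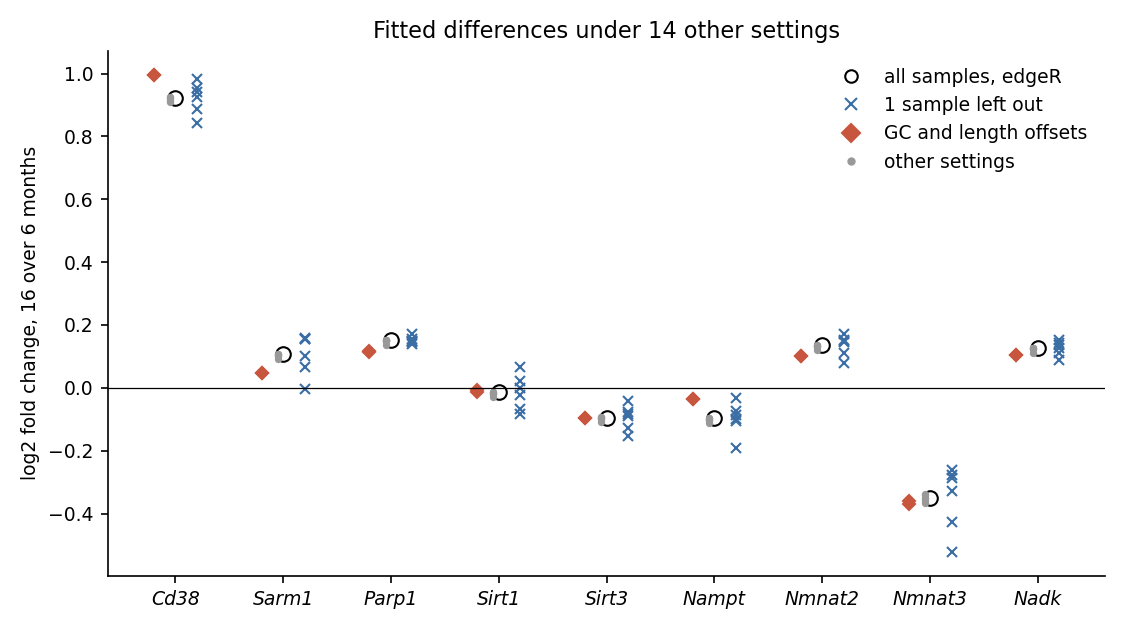
Log2 fold change of 16 over 6 months for the 9 tested members with all samples (open circle) and under 14 other settings: 1 sample left out (crosses), GC and length offsets (diamonds), and other normalizations, filters, DESeq2 or the replicate block (dots). *Cd38* lies between 0.84 and 1.00 in each of them, while *Sarm1* and *Sirt1* reach both sides of 0.

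Beside the members, 71 other genes were listed by role. They are genes of NAD metabolism and also 8 of calcium release, 7 of axon degeneration and 15 for substrates of SIRT1 or SIRT3. Of the 71, 68 were tested and the edgeR fit called *Enpp1* alone, beside 1.67% of all tested genes. *Enpp1*, which encodes an ectoenzyme that splits nucleotides outside the cell, had 7.31, 7.56 and 7.34 CPM at 6 months and 5.58, 5.20 and 5.44 CPM at 16 months. It fell by 0.45 on the log2 scale (standard error 0.077, edgeR quasi-likelihood test with Benjamini-Hochberg adjustment, adjusted p = 0.0216), and was lower in 3 of 3 older samples. The call was lost when any sample of 6 months or replicate 3 at 16 months was left out, with log2 fold changes from -0.47 to -0.42 over all 6 such fits. Without adjustment, 12 of the 68 had p under 0.05, a share close to the 17.4% of all tested genes, and DESeq2 called 1. The ages lay apart in 11 genes with higher and 10 genes with lower values at 16 months, beside 12.2% and 11.5% of all tested genes, and the median log2 fold change over the 68 was 0.0072.

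The other 6 genes of *Enpp1*'s list, which hold nicotinamide clearance and the transport of NAD and its precursors, were not called in this fit. With GC and length offsets, edgeR called *Aox1* among them, beside 13.7% of all tested genes. *Slc12a8*, reported as a carrier of nicotinamide mononucleotide, was at 0.80 to 0.87 CPM at 6 months and 1.15 to 1.18 CPM at 16 months, from 24 to 41 counts per sample, without overlap (log2 fold change 0.47, edgeR adjusted p = 0.185).

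None of the 14 other PARP genes and 5 other sirtuin genes was called by DESeq2 or by the edgeR fit over all samples without offsets. Of them, 4 and 1 had an unadjusted p under 0.05, beside 17.4% of all tested genes. With GC and length offsets, edgeR called *Parp3*, *Tnks*, *Sirt2* and *Sirt7*, beside 13.7% of all tested genes. The ages lay apart with lower values at 16 months for 5 of the 14 PARP genes and with higher values for 2. Of all tested genes, 11.5% lay apart with lower and 12.2% with higher values. Among the 5 were *Parp9*, a partner of an interferon-induced ubiquitin ligase (log2 fold change -0.29), and *Parp3*, which acts at DNA breaks (-0.28). *Sirt4* of mitochondria and *Sirt7* of the nucleolus overlapped between the ages, at log2 fold changes of -0.14 and -0.13. *Sirt2*, named here after its values were seen, was the sirtuin gene whose ages did not overlap, with a log2 fold change of 0.13.

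The remaining routes to NAD gave no call. The largest log2 fold changes in salvage and NADP synthesis were 0.15 for the nuclear *Nmnat1* and 0.13 for *Naprt*, which starts from nicotinic acid. Of 5 tested genes there, none was called by either tool. None of them had an unadjusted p under 0.05, beside 17.4% of all tested genes. The same counts held for 7 tested genes of the de novo route from tryptophan, where *Acmsd*, which diverts the route away from NAD, was at 0.46 and rested on 13 to 32 counts per sample. *Ido1*, the first step, was at 2.13, 2.20 and 2.62 CPM against 1.72, 2.07 and 1.84 CPM, without overlap (log2 fold change -0.31, interval -0.62 to 0.0046). *Nmrk2*, *Kynu* and *Haao*, at 1 to 14 counts per sample, did not pass the filter on low counts.

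Downstream of the messengers that CD38 and SARM1 make or of the loss of NMNAT2, 8 genes of calcium release and 7 of axon degeneration were listed. They gave no call by DESeq2 or by the edgeR fit over all samples without offsets. In each list 1 gene had an unadjusted p under 0.05, beside 17.4% of all tested genes. *Tpcn1* and *Tpcn2*, which encode endolysosomal channels opened by NAADP, stood at log2 fold changes of 0.19 and -0.19, both with overlapping ages. With GC and length offsets, edgeR called *Tpcn1*, beside 13.7% of all tested genes. *Fbxo45* and *Skp1a*, parts of the ubiquitin ligase that removes NMNAT2 protein, stood at 0.12 and -0.11. Among 15 genes whose products are substrates of SIRT1 or SIRT3, none was called by DESeq2 or by that edgeR fit without offsets. An unadjusted p under 0.05 was found for 2 of the 15, beside 17.4% of all tested genes. The largest differences there were those of the transcription factor genes *Foxo1*, at 27.9 to 30.9 CPM against 33.0 to 35.4 CPM (log2 fold change 0.24, edgeR adjusted p = 0.0913), and *Foxo3* (0.13). *Foxo1* was called by edgeR with the offsets.

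In log2 CPM over the 6 samples, the genes whose levels ran most like those of *Cd38* were *Sec23ip*, *Scn3b*, *Aplp2*, *Usp54* and *Sgk1*, with Pearson's r between 0.997 and 0.998, among 17119 genes compared. By Spearman's correlation *Sec23ip* and *Sgk1* stood at 1, with 75 genes in all at that value, and the other 3 at 0.943. The correlation follows the shape and not the size of a difference. *Scn3b* and *Sgk1* were called as higher at 16 months, with log2 fold changes of 0.27 each, beside 0.92 for *Cd38*. *Sec23ip*, *Aplp2* and *Usp54* were not called, at 0.148, 0.145 and 0.074. After the mean of each age was taken off, *Ift81*, *Gm26521*, *Ap1s2*, *Fpgt* and *1700112D23Rik* ran most like *Cd38* (r above 0.999). Of these, *Ap1s2*, *Fpgt*, *Gm26521* and *Ift81* had a GC content of 35.4% to 43.2%, beside 40.9% for *Cd38*, and *1700112D23Rik* one of 48.2%. *Gm26521* and *1700112D23Rik* were low, at means of 0.397 and 0.754 CPM at 6 months and 0.407 and 0.510 CPM at 16 months. Among the members, *Parp1* was closest to *Cd38* over the 6 samples (r = 0.902), but ran against it within the ages (r = -0.814). *Nampt* was closest within the ages (r = 0.964), with r = -0.312 over the 6 samples. These correlations describe 6 samples that share their libraries and the GC split.

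Markers of other cells and regions moved between the ages beside *Cd38*. The astrocyte list summed to 6569 to 6934 CPM at 6 months and 7085 to 7758 CPM at 16 months, without overlap. The largest part of these sums was *Slc1a2*, at means of 4126 and 4594 CPM (log2 fold change 0.15, not called). Of the 10 astrocyte genes none was called higher, and 6 had positive and 4 negative log2 fold changes. Higher values in all older samples were seen for 5, beside 12.2% of all tested genes. *Gfap* was called lower and fell by 0.47 on the log2 scale. Microglial markers summed to 489 to 505 CPM and 497 to 506 CPM, with 1 of 10 called (*Aif1*, lower). Blood immune markers were low at either age, at sums of 7.18 to 8.13 CPM and 6.03 to 6.38 CPM over 8 genes. These sums were mostly *Ptprc*, at means of 6.77 and 5.56 CPM, the 1 gene of the list that passed the filter on low counts. None of the 8 was at 0 in every sample.

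Markers of thalamus, dentate gyrus and blood summed to more in every older sample than in any younger one. Thalamic markers summed to 246 to 254 CPM against 261 to 297 CPM, with 5 of 9 called higher. The largest part of these sums was *Rora*, at means of 143 and 138 CPM (log2 fold change -0.054), the 1 negative gene of the list. *Shox2* went from a mean of 0.105 to 1.74 CPM (log2 fold change 4.06), and *Prkcd* stood at 0.91. Dentate gyrus markers summed to 200 to 206 CPM against 222 to 239 CPM, with 3 of 8 called higher. There *Stxbp6*, at means of 118 and 117 CPM, was the 1 negative gene (-0.013), and *Dsp* and *Lct* stood at 1.26 and 1.12. Erythroid markers summed to 27.3 to 30.9 CPM against 45.0 to 50.3 CPM (2 of 5 tested called higher). Markers of oligodendrocyte precursors summed to 203 to 211 CPM against 236 to 283 CPM (1 of 5 called higher). Striatal markers summed to 601 to 618 CPM against 643 to 663 CPM, with 1 of 8 called higher. Choroid plexus markers summed to 337 to 349 CPM against 331 to 361 CPM, also with 1 of 8 called higher. This choroid plexus sum was mostly *Enpp2*, at means of 325 and 317 CPM. The called gene, *Ttr*, went from a mean of 8.95 to 17.8 CPM (log2 fold change 0.998). Of the 8 choroid plexus genes, 5 had positive and 3 negative log2 fold changes. Excitatory neuron, GABAergic, endothelial and mural markers had no called gene of 8, 8, 8 and 6. Of them, 2, 2, 2 and 1 had an unadjusted p under 0.05, beside 17.4% of all tested genes. Of 10 oligodendrocyte markers, 1 was called higher. The defining markers of cortical neurons were present at both ages. Excitatory markers summed to 5298 to 5531 CPM against 5472 to 6364 CPM, with overlap. GABAergic markers summed to 887 to 911 CPM against 946 to 995 CPM, without overlap. The GABAergic list did not hold *Pvalb*, which the study reported as lower in the older cortex. The sums of endothelial markers (166 to 169 CPM against 159 to 165 CPM) and mural markers (149 to 158 CPM against 141 to 144 CPM) were lower in every older sample. The part of these markers in the values of *Cd38*, *Parp1*, *Nmnat2* and *Nadk* was not tested.

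RefSeq promoter windows (GRCm38.p6, 250 bases before and 50 after each start) were found for 9 of the 10 genes, 11 windows in all. RefSeq starts can differ from the GENCODE gene bounds given above. The windows of *Cd38*, *Sirt1*, *Nampt* and *Nmnat3* lie inside those bounds, and so hold no sequence upstream of them. The *Cd38* window (chr5:43868559-43868858, plus strand) held 1 CpG, the fewest of the 11, and that of *Sirt1* held 47, the most, beside a median of 7 over 32851 windows. The E-box CACGTG, searched on both strands, was in 3 of the 11 windows (*Parp1*, *Sirt1* and the second of *Nadk*), beside 7.15% of all windows. The GC box GGGCGG on either strand was in 7 of the 11, beside 35.7%, and TATAAA on either strand in 0, beside 13.6%. The *Cd38* window held none of the 3 motifs.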

How the data were processed

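Reads were trimmed with fastq-mcf, mapped with STAR (2 passes) to mm10, the UCSC mouse build, and counted per gene on the Ensembl annotation with HTSeq, per the methods of the study. The submitters' processing notes name CASAVA 1.8.2, STAR 2.3.0e and featureCounts 1.5.0-p1. The annotation release and strand setting are not given in the sources used here, so that reads of overlapping genes on opposite strands may not be told apart. The deposited values are raw counts per gene, and the authors tested them with DESeq2. Summary lines without a gene were left out of the fits. Gene counts made up 70.8% to 76.5% of the counts on genes, without a feature or ambiguous, with any other summary line not taken in.

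Identifiers were matched to GENCODE M21 (36602 of 38355). Counts of the 17120 genes kept by filterByExpr were fitted in edgeR 4.0.16 (R 4.3.3) with TMM normalization and the quasi-likelihood test of age, without covariates, and Benjamini-Hochberg adjustment at 0.05 over all tested genes. Standard errors and 95% intervals of members come from this fit, and log2 CPM uses a prior count of 2. The common coefficient of biological variation was 6.40%. A permutation test of 3 against 3 samples cannot go below 0.1 and was not used. The samples are 3 mice per age. A count of 3 corresponded to 0.0645 to 0.101 CPM per sample; this floor takes in counting error alone, as the libraries carried no molecular identifiers. Alternatives were other normalizations and filters, DESeq2 1.42.0, the replicate number as a block, offsets for GC content and length (medians over 20 bins), and each sample left out. Copies were searched with blastn 2.17.0 among the longest transcripts of the genes, and figures drawn with matplotlib 3.10.9. On simulated data for 17120 genes of this comparison, 75.5% of genes changed by 0.5 and 92.9% of genes changed by 1 on the log2 scale were recovered, and 4.05% of calls were false.

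The members and the gene lists were chosen with earlier results of these data known. Named genes are all 10 members, from each other list of the pathway every called gene and the 2 tested genes that differed most in size of log2 fold change, the 5 genes most correlated with Cd38 over all samples and the 5 within the ages, and markers where they moved.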

Additional observations from a re-analysis of the deposited data

How the results depend on the processing

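*Cd38* was called as higher in each of 14 alternatives, at log2 fold changes of 0.84 to 1.00, and was 0.84 to 0.98 with 1 sample left out. All of these fits reuse the samples from which *Cd38* was picked, so that their calls are not independent support for it. The number of genes called over the whole table, 286 in the fit reported, was 648 without the filter on low counts, 470 with DESeq2, 2348 with GC and length offsets, 3373 with these offsets and the replicate block, and 48 to 2211 with 1 sample left out: 55, 57 and 48 without replicates 1, 2 and 3 at 6 months, and 995, 2211 and 58 without replicates 1, 2 and 3 at 16 months. Members called, 1 in the fit reported, were 2 with the offsets (*Cd38* and *Parp1*), 4 with the offsets and the block (also *Nmnat2* and *Nadk*) and 1 to 3 with 1 sample left out, the 3 being without replicate 2 at 16 months (*Cd38*, *Parp1* and, lower, *Nampt*). Consumers called were 2 with the offsets, 2 with the offsets and the block and 1 to 2 with 1 sample left out, and synthesis genes called were 2 with the offsets and the block and 0 to 1 with 1 sample left out. Of the other genes listed by role, 1 was called in the fit reported, 8 with the offsets and 14 with the offsets and the block. The 8 were *Aox1*, *Enpp1*, *Foxo1*, *Parp3*, *Sirt2*, *Sirt7*, *Tnks* and *Tpcn1*. The block added *Fbxo45*, *Parp4*, *Parp6*, *Parp8*, *Parp9* and *Parp12*. With 1 sample left out, 0 to 4 of the other genes listed by role were called. The count was 0 when any sample of 6 months or replicate 3 at 16 months was left out. It was 3 without replicate 1 and 4 without replicate 2 at 16 months. With 1 sample left out, the log2 fold change of *Sarm1* ran from -0.0026 to 0.16 and that of *Sirt1* from -0.084 to 0.065. *Sarm1* turned to -0.0026 without replicate 1 at 16 months, and *Sirt1* to 0.023 and 0.0010 without replicates 2 and 3 at 6 months and to 0.065 without replicate 1 at 16 months. The cause of these shifts was not tested.

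Same-numbered samples of the 2 ages are different mice, and their deviations correlated with r = 0.180, 0.0958 and 0.0351, so that the numbers were not taken as pairs, although each sample of 6 months correlated best with its own number. With the replicate block 783 genes were called, and 1 member and the same direction of each member were found. Upper quartile normalization called 291 genes, with a median of -0.013 over all tested genes. Among the members, *Bst1* and *Nmnat3* had the fewest counts.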
